A study of Mus musculus with 12 samples.

Results

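The nuclear genes for oxidative phosphorylation were followed here across 12 expression arrays of mouse intestinal tumor epithelium and the epithelium beside it. Members were the genes whose single symbol starts with Ndufa, Ndufb, Ndufc, Ndufs, Ndufv, Sdha, Sdhb, Sdhc, Sdhd, Uqcr, Cyc1, Cox4i, Cox5, Cox6, Cox7, Cox8 or Atp5, without Ndufaf, Uqcc and pseudogene symbols. That gave 87 of 19938 genes measured: 34 subunits of complex I, 4 subunits and 4 assembly factors of complex II (Sdhaf1 to Sdhaf4, which the Sdha prefix takes in), 9 genes of complex III, 19 of complex IV and 17 of complex V. Where a gene had several probe sets, the one with the highest mean over the 12 arrays was used. The genes lie on 19 chromosomes, with at most 10 on any of them. No filter on low values was applied, so all 87 were tested.

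Oxidative phosphorylation is carried out by 5 protein complexes of the inner mitochondrial membrane. Complex I takes electrons from NADH and complex II from succinate, complex III passes them to cytochrome c, and complex IV hands them to oxygen. Complexes I, III and IV pump protons, and complex V, the ATP synthase, uses the returning protons to make ATP. Most subunits are encoded in the nucleus and a few in mitochondrial DNA, and the nuclear genes are classic targets of the transcription factors NRF1, GABP, YY1 and the estrogen-related receptors with their coactivator PGC-1alpha. In the intestine, absorptive cells of the villus carry more mitochondria than the cells of the crypt base.

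The KO group was FSPCre-PPARB -/- and the floxed group its PPARB flox/flox littermates. Both carried the APCmin/+ allele, which gives intestinal tumors, on a C57BL6/J background. The mice were males, and tissue was taken at 25 weeks of age. Cre was driven by the promoter of fibroblast-specific protein (S100a4), so the deletion of Ppard, the gene of the nuclear receptor PPAR beta/delta, was directed at fibroblasts, while the RNA came from epithelium cut by laser from stained sections. There were 3 KO tumor, 3 floxed tumor, 2 KO adjacent and 2 floxed adjacent arrays. For 2 further adjacent arrays the labels contradict each other on genotype: the title of conflicting array 1 says KO and its genotype entry floxed, and those of conflicting array 2 say the opposite. In the main fits they enter only the comparison of tumor with adjacent epithelium over all arrays. Alternative fits of the other comparisons read them by title or by genotype entry. Nothing ties an array to a mouse, so a p-value measures the spread between these samples, and fewer cells of a type cannot be told apart from less RNA per cell.

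Several features of the arrays touch every result below. Floxed tumor arrays 1 and 2 and both floxed adjacent arrays had a median correlation with the other arrays of 0.507 to 0.611 over all probe sets, against 0.818 to 0.852 for the other 8, and a narrower spread of values (SD of 1.037 to 1.088, against 1.486 to 1.573). They are called weak-signal arrays. Floxed tumor array 3 was thus the sole floxed array of agreed genotype with a full range of signal. Ppard itself was 6.06, 6.07 and 6.50 (log2) on the KO tumor arrays and 4.95, 4.48 and 5.79 on the floxed tumor arrays, a difference of 1.14 ± 0.33 (SE; adjusted p = 0.0991), so it was not lower in KO epithelium. The tissue labels and the marker genes also went apart. Across the KO arrays, 6 of 10 Wnt-target and stem cell markers were called lower in tumor than in adjacent epithelium, against 1.29% of all genes. Among them were Cd44 (-1.79), Notum (-1.58) and Lgr5 (-1.28), although such genes usually mark intestinal tumors that have lost Apc. Olfm4, of the same list, ran the other way, at 5.88, 5.67 and 4.17 in KO tumor and 4.91 and 4.01 in KO adjacent. All 12 enterocyte markers lay higher in KO tumor, 4 of them called, against 0.557% of all genes. The mean log2 level of that list was 8.00 to 8.76 on KO tumor arrays and 6.06 to 7.12 on KO adjacent arrays. In a fit of the 4 groups over 10 arrays, 4 of all genes were called lower and 0 higher, so not all these calls held. "Tumor" and "adjacent" are used below as the labels give them.

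The promoters of 5 members are shown as examples with and without motif matches, chosen after their values and matches were seen. Ndufv2, Atp5h and Cox8a were called higher in KO adjacent epithelium, and Ndufs5 and Atp5k had the largest negative differences of tumor epithelium once weak-signal arrays were left out. Each is the sense strand from 250 bases before to 50 bases after the start of the gene, 5′ to 3′, from RefSeq (GRCm38.p6). Capitals mark matches to the NRF1 motif, which is GCGC and TGCGC with any base between them, and to the GABP motif CCGGAAG, on either strand.
Ndufv2, chr17:66101510-66101809, minus strand, with no match: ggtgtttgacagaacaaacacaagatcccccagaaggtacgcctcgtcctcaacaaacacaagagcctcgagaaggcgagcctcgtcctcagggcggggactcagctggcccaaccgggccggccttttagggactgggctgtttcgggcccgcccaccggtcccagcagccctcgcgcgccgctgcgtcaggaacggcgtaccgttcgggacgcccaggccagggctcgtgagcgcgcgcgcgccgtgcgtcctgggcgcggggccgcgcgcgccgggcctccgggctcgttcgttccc
Atp5h, chr11:115419870-115420169, minus strand, with an NRF1 and a GABP match: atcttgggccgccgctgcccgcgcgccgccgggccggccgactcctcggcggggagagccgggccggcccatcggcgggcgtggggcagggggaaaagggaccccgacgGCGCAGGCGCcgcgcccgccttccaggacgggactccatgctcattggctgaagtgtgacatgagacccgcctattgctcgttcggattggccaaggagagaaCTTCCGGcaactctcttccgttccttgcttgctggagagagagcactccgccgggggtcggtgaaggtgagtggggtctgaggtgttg
Cox8a, chr19:7217567-7217866, minus strand, with 2 GABP matches: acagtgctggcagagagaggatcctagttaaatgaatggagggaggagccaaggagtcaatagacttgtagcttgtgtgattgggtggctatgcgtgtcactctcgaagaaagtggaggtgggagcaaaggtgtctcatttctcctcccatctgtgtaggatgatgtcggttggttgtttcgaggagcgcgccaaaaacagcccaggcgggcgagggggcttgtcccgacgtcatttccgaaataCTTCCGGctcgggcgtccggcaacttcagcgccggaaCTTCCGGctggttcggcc
Ndufs5, chr4:123718137-123718436, minus strand, with an NRF1 match: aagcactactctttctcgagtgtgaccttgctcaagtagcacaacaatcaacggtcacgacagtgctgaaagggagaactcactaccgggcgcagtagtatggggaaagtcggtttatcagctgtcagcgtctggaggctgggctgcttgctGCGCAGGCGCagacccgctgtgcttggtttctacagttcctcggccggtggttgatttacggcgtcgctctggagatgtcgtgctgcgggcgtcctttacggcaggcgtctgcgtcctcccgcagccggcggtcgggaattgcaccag
Atp5k, chr5:108434350-108434649, minus strand, with an NRF1 and a GABP match: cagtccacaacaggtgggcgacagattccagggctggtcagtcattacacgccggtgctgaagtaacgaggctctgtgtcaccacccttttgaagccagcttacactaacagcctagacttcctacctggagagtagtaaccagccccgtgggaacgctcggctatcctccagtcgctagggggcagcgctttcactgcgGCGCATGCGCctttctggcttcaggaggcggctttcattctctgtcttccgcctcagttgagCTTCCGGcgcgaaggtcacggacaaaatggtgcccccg

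Promoters were listed for 71 of the 87 members. Of these, 18 (25.4%) held the NRF1 motif, against 1402 of 27025 genes with a listed promoter (5.19%). The GABP motif was in 20 (28.2%), against 9.93% of all promoters. The YY1 motif AAGATGGCG was in 7 (9.86%), against 1.64%, and the estrogen-related receptor motif TCAAGGTCA in 2 (2.82%), against 0.466%. The direct repeat that PPAR receptors can bind, 2 copies of AGGTCA with any base between them, was in 0 of the 71, and in 13 of all promoters (0.0481%). All motifs were sought on both strands, and the matches of different motifs could overlap. By complex, the NRF1 motif was in 6 of 15 promoters of complex V and in 1 of 13 of complex IV. A match is a run of letters and does not say that a factor binds there.

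Over the 87 genes, the median log2 value was 6.05, 6.55 and 6.53 on the KO tumor arrays and 5.56, 5.10 and 6.77 on the floxed tumor arrays. It was 6.27 and 6.02 on the KO adjacent arrays, 5.20 and 5.27 on the floxed adjacent arrays, and 6.33 and 6.08 on conflicting arrays 1 and 2. The 4 lowest medians were those of the 4 weak-signal arrays, and the other 8 did not separate by genotype or tissue. The median over all genes stayed between 4.38 and 4.53 on every array. Members also spread more between arrays of a group than genes at large. The median SD was 0.308 for members and 0.158 for all genes in KO tumor, and 0.889 and 0.500 in floxed tumor. Members were mostly brighter than genes at large, and the spread of genes of like brightness was not compared.

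**Figure D1:**
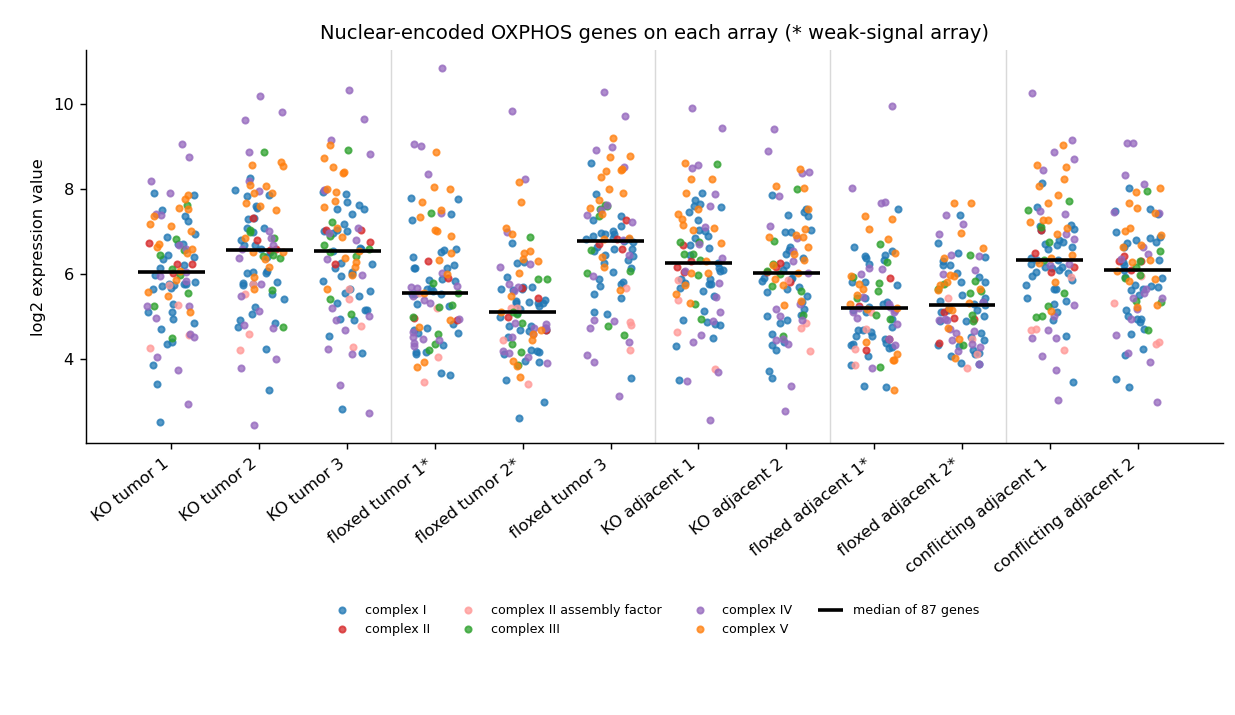
Log2 expression value (vertical axis) of each of the 87 genes on each of the 12 arrays, coloured by complex, with a bar at the array's median. The bars sit between 5.10 and 5.56 on the 4 starred weak-signal arrays and between 6.02 and 6.77 on the other 8.

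Single members differed widely in how steady they were. Ndufa8, a subunit of the membrane arm of complex I, varied least, with values of 5.65 to 6.31 (SD of 0.194 over 12 arrays). Cox4i2, the lung and hypoxia form of subunit 4 of complex IV, followed with an SD of 0.264. Uqcrh, the hinge protein of complex III, varied most, with values of 4.15 to 8.93 (SD of 1.757). Cox6b1, which links the monomers of the complex IV dimer, ran between 5.76 and 10.33, and Atp5b, the catalytic beta subunit of the ATP synthase, between 3.25 and 7.93. The lowest value of each of these 3 was on a weak-signal array. As a description, the 87 values correlated at 0.942 to 0.979 among the 5 KO arrays. Conflicting array 2 correlated with those arrays at 0.958 to 0.980 and conflicting array 1 at 0.833 to 0.866, while conflicting array 1 and floxed tumor array 3 correlated at 0.945. The points are 87 genes on the same platform, and no genotype was assigned from them.

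KO against floxed tumor epithelium asks what loss of the receptor in fibroblasts leaves different in the tumor cells. Here 1 of 87 members, the complex III subunit Uqcrq, was called higher in KO tumor (limma, adjusted p under 0.05 over all genes) and 0 were called lower, where 0.682% of all genes were called higher and 0.396% lower. The median member difference was 0.56, with 60 of 87 above 0, against a median of -0.01 over all genes, 49.6% of which lay above 0. Most members are not dim genes: with the 30% dimmest genes left out, the median was 0.18 over all genes, 64.9% of which lay above 0, and 59 of the 83 members kept lay above 0. After another quantile normalization the member median was 0.26, with 53 of 87 above 0. At an unadjusted p under 0.05 stood 28 members. With the title number as a replicate block, 0 members were called in either direction. KO and floxed arrays did not overlap for 14 members that were higher in KO (16.1%, against 13.2% of all genes) and 9 that were lower (10.3%, against 13.9%).

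The positive median rested on the 2 weak-signal floxed arrays. All 3 KO tumor arrays lay above floxed tumor array 1 for 52 members and above array 2 for 63, but above array 3 for 18 (59.8%, 72.4% and 20.7%, against 40.0%, 41.9% and 38.7% of all genes). They lay below array 1 for 23 members, below array 2 for 12 and below array 3 for 47 (26.4%, 13.8% and 54.0%, against 42.6%, 43.0% and 35.3% of all genes). The median of the KO mean minus the array was 0.54, 1.24 and -0.30 for floxed tumor arrays 1, 2 and 3. Without floxed tumor array 3, 37 members were called higher and 4 lower, where 14.0% of all genes were called higher and 15.1% lower. With the weak-signal arrays left out, so that the 3 KO tumor arrays meet floxed tumor array 3 alone, 5 members were called higher and 15 lower, where 9.47% of all genes were called higher and 9.92% lower. The median was then -0.30, with 30 of 87 above 0, against 0.02 over all genes. This fit rests on a lone floxed array, and its spread comes from the KO arrays alone. The median SD of members was 0.308 in KO tumor and 0.889 in floxed tumor with its weak-signal arrays. The calls and adjusted p-values against array 3 alone, here and below, thus hold no floxed variation and can overstate certainty. In the same fit 6 of 9 epithelial markers were called lower in KO (median of -1.29), 3 of 4 markers of exocrine pancreas and Brunner gland were called lower (-2.94) and 5 of 7 fibroblast markers were called higher (0.89), and their part in the result was not tested.

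**Figure D2:**
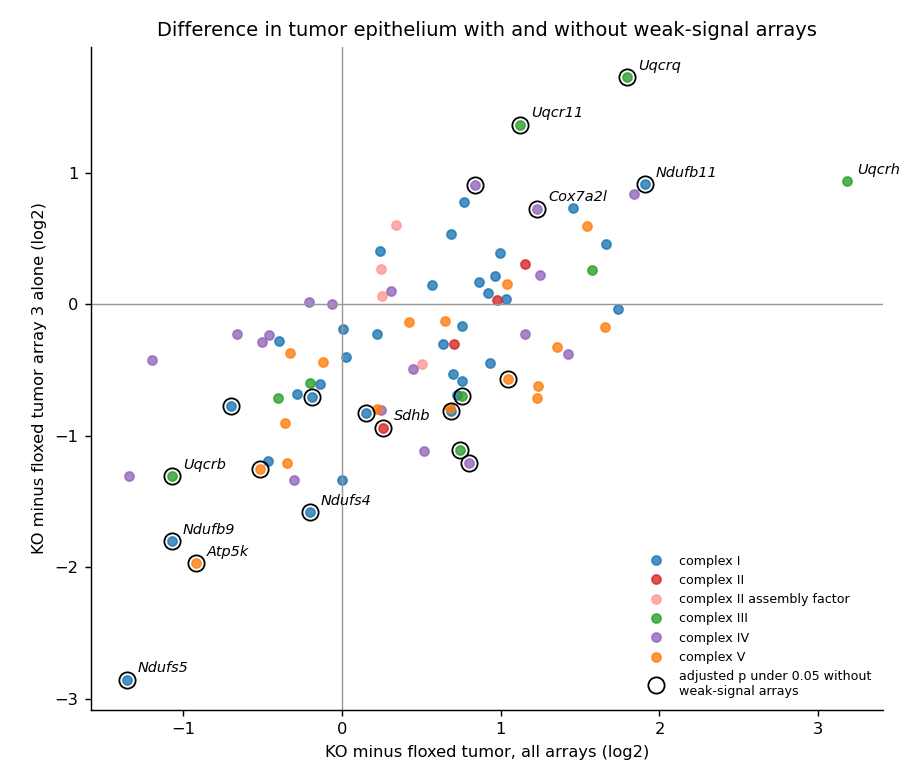
Log2 difference of KO minus floxed tumor for each of the 87 genes, with all floxed arrays on the horizontal axis and with floxed tumor array 3 alone on the vertical axis, coloured by complex. Both axes share the KO tumor arrays and floxed tumor array 3. Rings mark the 5 genes called higher and the 15 called lower against array 3 alone.

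KO against floxed adjacent epithelium gave 7 members called higher and 1 called lower of 87, where 2.91% of all genes were called higher and 3.15% lower. The 7 were Ndufv2, Ndufb8, Sdhc, Sdhaf1, Cox8a, Cox7a2l and Atp5h, from complexes I, II, IV and V, and the 1 lower was Cox7b2. The median member difference was 0.82, with 67 of 87 above 0, against -0.04 over all genes. With the 30% dimmest genes left out, the median was 0.24 over all genes, 63.7% of which lay above 0, and 66 of the 83 members kept lay above 0. After another quantile normalization the member median was 0.32, with 50 of 87 above 0. The 2 KO arrays lay above both floxed arrays for 53 members (60.9%, against 32.1% of all genes) and below both for 11 (12.6%, against 35.0%). Both floxed adjacent arrays are of weak signal, so signal strength and genotype cannot be told apart in this comparison. All 9 epithelial markers also lay higher in KO adjacent (0 called, median of 2.01), with mean levels of 7.03 to 7.15 on KO arrays and 5.11 to 5.34 on floxed arrays. Wnt-target and stem cell markers were higher for 9 of 10 genes (3 called), with mean levels of 5.62 to 5.65 on KO and 4.51 to 4.73 on floxed arrays. Proliferation markers had mean levels of 5.61 to 5.71 on KO and 4.77 to 5.02 on floxed arrays (1 of 5 called higher), immune markers 5.02 to 5.07 and 4.38 to 4.53 (2 of 9), and fibroblast markers 5.11 to 5.23 and 4.70 to 4.78 (1 of 7). The part of these lists in the result was not tested.

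The 2 conflicting arrays allow a look at adjacent epithelium without weak signal, if they are read by their genotype entry. KO adjacent arrays 1 and 2 with conflicting array 2 then stand against conflicting array 1 alone. In that reading 1 member, Ndufb11, was called higher and 13 were called lower in KO, where 4.59% of all genes were called higher and 6.72% lower. The median turned to -0.22, with 34 of 87 above 0. By title, again without weak-signal arrays, the 2 KO adjacent arrays with conflicting array 1 stand against conflicting array 2 alone. That reading called 0 members, where 0.00502% of all genes were called higher and 0.0251% lower, and its median was 0.17, with 60 of 87 above 0. The 7 members called higher in the comparison above then had differences of -0.06 to 0.29, and of -0.04 to 0.75 by genotype entry, none called in either. With the weak-signal arrays kept, 0 members were called under either reading, and the medians were 0.41 by genotype entry and 0.67 by title. None of the adjacent arrays had both full signal and an agreed floxed genotype, and which reading holds was not tested.

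Without weak-signal arrays, the tumor comparison and the adjacent comparison read by genotype entry use different arrays, though their fits share a spread. The members called in KO adjacent here are those of the genotype-entry reading, which was chosen after seeing the data. Those calls were not made when the conflicting labels were read by title. Of the 15 members called lower in KO tumor and the 13 called lower in KO adjacent, 9 were the same: Ndufa7, Ndufb9, Ndufs4, Ndufs5, Sdhb, Uqcrc2, Cox5b, Atp5e and Atp5k. That is 60.0% of the tumor list and 69.2% of the adjacent list, where for all genes called lower the shares were 30.1% and 44.4%. Ndufb11 was the 1 member higher in both. Each of these comparisons has a single array on the floxed side, floxed tumor array 3 or conflicting array 1. The spread in both fits thus comes from arrays read as KO alone. Those arrays correlated with each other at 0.945 over the members and 0.9 over all probe sets. Their median level of exocrine pancreas and Brunner gland markers was 7.4 and 7.9, against 4.4 to 6.2 on the KO arrays. The part of this likeness in the overlap was not tested.

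In complex I, the arm that takes up NADH held the member with the largest difference in adjacent epithelium. Ndufv2, an iron-sulfur subunit of that arm, was 7.46 and 7.04 on KO adjacent arrays and 4.37 and 4.07 on floxed adjacent arrays. On tumor arrays it was 6.71, 7.56 and 7.42 in KO and 4.62, 5.30 and 6.77 in floxed. KO lay above both weak-signal arrays of either tissue by over 1 unit, but KO tumor array 1 lay below floxed tumor array 3. The adjacent difference was 3.03 ± 0.58 (SE; adjusted p = 0.0242) and the tumor difference 1.67 ± 0.47 (adjusted p = 0.0933). Against floxed tumor array 3 alone it was 0.46 (adjusted p = 0.35).

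Ndufb8, a subunit of the membrane arm, was 6.61 and 6.38 on KO adjacent arrays and 4.67 and 4.61 on floxed adjacent arrays. The tight pairs gave a difference of 1.85 ± 0.39 (SE; adjusted p = 0.0286). In tumor it was 6.22, 6.69 and 7.02 in KO and 5.52, 5.16 and 6.25 in floxed, where the lowest KO value fell just under floxed array 3. The tumor difference was 0.99 (adjusted p = 0.11).

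Ndufb11, also of the membrane arm, was 7.51, 7.61 and 7.54 on KO tumor arrays and 6.14, 4.16 and 6.64 on floxed tumor arrays. It was 7.57 and 7.86 in KO adjacent, 4.24 and 5.91 in floxed adjacent, and 6.23 and 7.41 on conflicting arrays 1 and 2. All 5 KO arrays lay above all 5 floxed arrays. The differences of 1.91 in tumor (adjusted p = 0.11) and 2.63 in adjacent (adjusted p = 0.053) missed the threshold, while 0.92 against floxed tumor array 3 alone passed it (adjusted p = 0.013). A second Ndufb11 probe set, of lower mean, gave -0.96 in tumor, so the gene's direction rests on the choice of probe set.

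Ndufs5, a small membrane-arm subunit that is imported through the disulfide relay, ran the other way. It was 2.51, 3.25 and 2.81 on KO tumor arrays and 4.33, 2.60 and 5.71 on floxed tumor arrays. It was 3.51 and 3.55 in KO adjacent, 5.21 and 3.88 in floxed adjacent, and 6.02 and 3.33 on conflicting arrays 1 and 2. All 5 KO values lay under the median of unnamed probe sets of those arrays, which was 3.92 to 3.94, so the KO level is near the bottom of the scale. The highest values were on conflicting array 1 and floxed tumor array 3. Over all tumor arrays the difference was -1.36 ± 0.64 (adjusted p = 0.233), and against array 3 alone it was -2.85 (adjusted p = 0.0017), the largest negative difference of any member in that fit.

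Ndufs4 and Ndufb9 were also called lower against array 3 alone. Ndufs4, needed to attach the NADH-binding arm and mutated in Leigh syndrome in humans, was 4.93, 5.53 and 5.64 on KO tumor arrays and 5.83, 3.94 and 6.94 on floxed tumor arrays, with 7.04 on conflicting array 1. Ndufb9 was 4.69, 5.40 and 5.55 on KO tumor arrays and 6.51, 5.33 and 7.02 on floxed tumor arrays, with 6.15 there. Floxed tumor array 3 was the highest tumor array for both, and floxed tumor array 2 was the lowest for Ndufs4. Against array 3 alone the differences were -1.58 for Ndufs4 (adjusted p = 0.012) and -1.80 for Ndufb9 (adjusted p = 0.0092), and over all tumor arrays -0.20 and -1.07 (adjusted p = 0.86 and 0.19). Ndufa13, also known as the cell death gene GRIM-19, was 5.71, 5.73 and 5.60 in KO tumor and 6.40, 6.28 and 6.45 in floxed tumor. Its groups were apart on every tumor array, weak or not, with a difference of -0.70 ± 0.22 (adjusted p = 0.11), or -0.77 against array 3 alone (adjusted p = 0.018). In adjacent epithelium it differed by 0.03.

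The 10 genes of the NADH-binding arm had a median of 0.70 in tumor and 0.84 in adjacent epithelium (KO minus floxed), the 5 of the quinone-binding arm 0.87 and 0.21, and the 18 of the membrane arm 0.12 and 0.54. In all, 24 of 34 complex I genes lay above 0 in tumor, 0 of them called, and 28 of 34 in adjacent epithelium, 2 called. Against floxed tumor array 3 alone, 1 was called higher and 7 lower, and 12 lay above 0.

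Complex II, the succinate dehydrogenase of the citric acid cycle, has 4 subunits, all nuclear. Sdhc, a membrane anchor, was 6.72, 7.31 and 7.04 on KO tumor arrays and 5.90, 4.99 and 6.71 on floxed tumor arrays. In adjacent epithelium it was 6.67 and 6.26 in KO and 4.47 and 4.36 in floxed. KO lay above floxed in both tissues, by a thin margin over floxed tumor array 3. The differences were 2.05 ± 0.47 in adjacent (SE; adjusted p = 0.035) and 1.16 in tumor (adjusted p = 0.13).

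Sdha, the flavoprotein that oxidises succinate, was 6.24, 6.58 and 7.02 on KO tumor arrays and 4.91, 5.43 and 6.58 on floxed tumor arrays. Sdhd, the other anchor, was 6.01, 6.79 and 6.75 in KO tumor and 4.95, 5.67 and 6.82 in floxed tumor. Sdhb, the iron-sulfur subunit, was 6.24, 6.55 and 6.24 in KO tumor and 6.30, 4.68 and 7.28 in floxed tumor. Floxed tumor array 3 stood within or above the KO range for all 3, and the other floxed arrays lay below it, save Sdhb on array 1. Differences over all tumor arrays were 0.97, 0.71 and 0.26 for Sdha, Sdhd and Sdhb, none called, and Sdhb was called lower against array 3 alone (-0.94, adjusted p = 0.017).

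The assembly factor Sdhaf1, which helps fit the iron-sulfur clusters of Sdhb, was 5.87 and 5.86 in KO adjacent and 4.70 and 4.12 in floxed adjacent. In tumor it ran between 5.65 and 5.77 in KO and between 5.19 and 5.66 in floxed. The gap was on the 2 floxed adjacent arrays, at 1.46 ± 0.29 (SE; adjusted p = 0.0265), against 0.25 in tumor. Read by genotype entry without weak-signal arrays, it was -0.04 (adjusted p = 0.89). Sdhaf2, Sdhaf3 and Sdhaf4 had differences of -0.19 to 0.67 in adjacent epithelium, none called.

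Complex III held the 1 member called in tumor epithelium. Uqcrq, a small subunit at the membrane, was 5.98, 6.38 and 6.51 on KO tumor arrays and 4.59, 4.34 and 4.56 on floxed tumor arrays. The 3 floxed values lay close together, 2 of them on weak-signal arrays, and each lay over 1 unit below every KO value. The median of unnamed probe sets was 4.24 and 4.39 on floxed tumor arrays 1 and 2, so Uqcrq was near the bottom of the scale there. On floxed tumor array 3 that median was 3.85. The group means were 6.29 ± 0.28 and 4.50 ± 0.14 (SD, n = 3 each), and the difference was 1.79 ± 0.29 (SE; adjusted p = 0.0271, limma). Against floxed tumor array 3 alone it was 1.73 (adjusted p = 0.0096). Over 15 alternative settings the difference stayed between 1.53 and 1.95, but the call held in 6 of them (adjusted p of 0.00248 to 0.187) and was lost in the other 9. Those were the title number as a replicate block (adjusted p = 0.0514), another quantile normalization, only the arrays compared, conflicting labels read by title, and leaving out KO tumor array 1, 2 or 3 or floxed tumor array 1 or 2. In adjacent epithelium Uqcrq was 6.46 and 5.72 in KO and 4.95 and 5.59 in floxed, with 4.97 and 5.90 on conflicting arrays 1 and 2. Those KO and floxed arrays did not overlap, though floxed array 2 came close to KO array 2, and the difference of 0.82 was not called (adjusted p = 0.15).

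Uqcr11, another small subunit, followed the same order in tumor, at 5.55, 6.43 and 6.42 in KO and 5.21, 5.06 and 4.77 in floxed. KO lay above floxed on every tumor array, with a difference of 1.12 ± 0.28 (adjusted p = 0.0766), and 1.36 against array 3 alone (adjusted p = 0.026). Uqcrb, which binds near the quinone site, ran opposite, at 4.50, 4.74 and 5.06 in KO tumor and 5.56, 5.88 and 6.07 in floxed tumor. It was also lower in KO adjacent (4.93 and 4.53) than in floxed adjacent (5.93 and 5.63), with 5.25 and 4.68 on the conflicting arrays. The 5 KO and 5 floxed arrays did not overlap for Uqcrb. Differences were -1.07 ± 0.26 in tumor (adjusted p = 0.0696) and -1.06 in adjacent (adjusted p = 0.064), and -1.30 against array 3 alone (adjusted p = 0.012).

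Uqcrh showed the largest difference of all members in tumor, at 7.63, 8.87 and 8.93 in KO and 4.20, 4.15 and 7.54 in floxed. Floxed array 3 stood close under the lowest KO array and over 3 units above the other floxed arrays. The difference was 3.18 ± 0.78 (adjusted p = 0.0729), and 0.94 against array 3 alone (adjusted p = 0.20). The core protein Uqcrc1 was 6.12, 6.46 and 6.88 in KO tumor and 5.79, 3.85 and 7.59 in floxed tumor, with a difference of 0.74 that turned to -1.11 against array 3 alone (adjusted p = 0.56 and 0.033). Complex III thus held members on both sides in the same tissue: 5 of 9 had an unadjusted p under 0.05 in tumor, and the differences ran between -1.07 and 3.18.

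**Figure D3:**
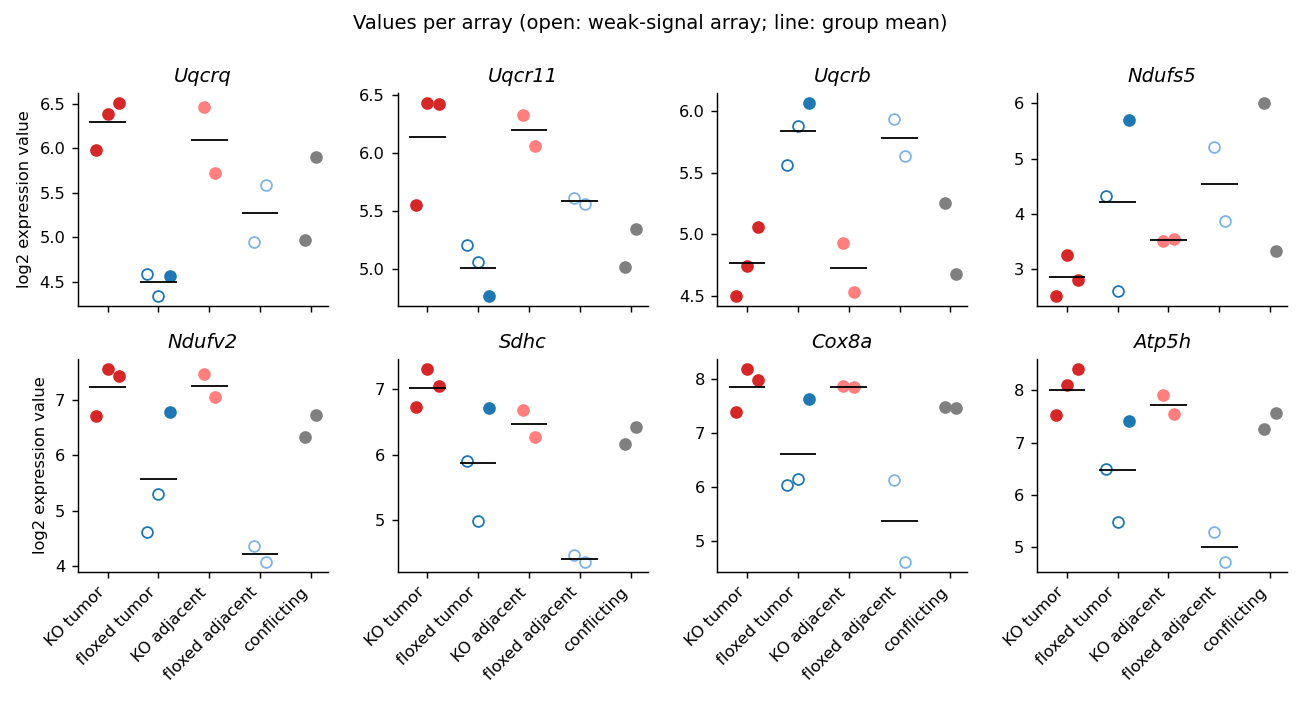
Log2 expression value (vertical axis, own scale in each panel) of 8 members on each array, by group, with open points for weak-signal arrays and a line at the group mean. Uqcrq and Uqcrb separate KO from floxed tumor on all 6 arrays, while Ndufv2 and Cox8a lie low on the open points of the floxed groups, where the filled floxed tumor array 3 lies between 6.77 and 7.63.

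Complex IV has general subunits and forms made in certain tissues or conditions. Cox8a, the smallest subunit in its widespread form, was 7.87 and 7.85 in KO adjacent and 6.13 and 4.61 in floxed adjacent. In tumor it was 7.39, 8.19 and 7.98 in KO and 6.03, 6.15 and 7.63 in floxed. Only weak-signal arrays lay below 7. The differences were 2.49 ± 0.59 in adjacent (SE; adjusted p = 0.0377) and 1.25 in tumor (adjusted p = 0.16).

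Cox7a2l, which links complexes III and IV in supercomplexes, was 7.10 and 6.84 in KO adjacent and 5.30 and 4.66 in floxed adjacent. In tumor it was 6.68, 6.59 and 6.79 in KO and 5.68, 4.72 and 5.96 in floxed, with 6.83 and 6.63 on the conflicting arrays. KO lay above floxed on every array of either tissue. The difference was 1.99 ± 0.40 in adjacent (adjusted p = 0.0265) and 1.23 in tumor (adjusted p = 0.083), and 0.73 against floxed tumor array 3 alone (adjusted p = 0.029). A second Cox7a2l probe set gave -0.03 in tumor.

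Cox7b2, a form best known from testis, was the 1 member called lower in KO adjacent. It was 2.56 and 2.76 there and 4.47 and 4.27 in floxed adjacent, and 2.94, 2.42 and 2.71 in KO tumor against 4.51, 4.04 and 3.12 in floxed tumor. On the 8 arrays of full signal it stayed at or under 3.12, below the median of unnamed probe sets. On the 4 weak-signal arrays it was 4.04 to 4.51, around the median of unnamed probe sets there, which was 4.24 to 4.39. The call (adjusted p = 0.040) thus compares values at the bottom of the scale in both groups, and no size is given for it. The dim forms Cox8b of heart and muscle and Cox8c of testis stayed between 3.35 and 4.63 on all arrays.

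Among the other isoform pairs, Cox6a1, the general form, was lower in KO tumor (8.18, 9.62 and 9.17) than in floxed tumor (10.86, 9.84 and 10.30), a difference of -1.34 ± 0.59 (adjusted p = 0.203). Its muscle form Cox6a2 was higher, at 5.24, 5.49 and 5.19 in KO tumor and 4.44, 4.57 and 4.40 in floxed tumor. The 2 forms lay apart in opposite directions on every tumor array. For Cox6a2 the difference was 0.83 (adjusted p = 0.13), and 0.91 against array 3 alone (adjusted p = 0.023). Cox4i1, the general form of subunit 4, was 6.58, 7.02 and 7.09 in KO tumor and 7.44, 4.52 and 7.39 in floxed tumor, and differed by 0.45, while Cox4i2 differed by 0.31. Cox6b1 differed by 1.84 and its testis form Cox6b2 by -0.66, Cox7a1 of muscle by -0.31 and Cox7a2 by 0.24, none called. Ndufa4, now counted to complex IV, was 6.05, 6.85 and 6.35 in KO tumor and 4.29, 3.90 and 6.80 in floxed tumor, a difference of 1.42, and its hypoxia-induced relative Ndufa4l2 differed by -0.46. Over the group, the 10 general forms had a median of 0.66 in tumor and 1.25 in adjacent epithelium. The 8 tissue or condition forms had medians of -0.38 and -0.36. Against floxed tumor array 3 alone, 7 of 19 complex IV genes lay above 0, with a median of -0.24. The median of unnamed probe sets was 4.24 to 4.39 on the weak-signal arrays and 3.85 to 3.94 on the others. Cox7b2, Cox8b and Cox8c lay near or below that level. The part of signal strength in this contrast was not tested.

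In complex V, Atp5h, the d subunit of the stator stalk, was 7.91 and 7.54 in KO adjacent and 5.29 and 4.71 in floxed adjacent. In tumor it was 7.53, 8.09 and 8.41 in KO and 6.50, 5.48 and 7.41 in floxed. KO lay above floxed throughout, though floxed tumor array 3 came close to KO tumor array 1. The adjacent difference was 2.72 ± 0.54 (SE; adjusted p = 0.0256) and the tumor difference 1.54 ± 0.44 (adjusted p = 0.0947). The other 2 probe sets of Atp5h gave 1.90 and 1.97 in tumor, and both were called (adjusted p = 0.0153 and 0.0343) when all probe sets were tested.

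The F1 head holds the catalytic sites. Atp5b was 7.13, 7.67 and 7.93 in KO tumor and 4.92, 5.10 and 7.75 in floxed tumor, and 7.15 and 6.87 in KO adjacent against 3.25 and 5.97 in floxed adjacent. Floxed tumor array 3 lay inside the KO range and the 4 weak-signal arrays below it. Differences were 1.66 in tumor and 2.40 in adjacent (adjusted p = 0.23 and 0.13). Atp5a1, the alpha subunit, and Atp5c1, the gamma subunit, differed by 1.24 and 1.23 in tumor and turned to -0.62 and -0.71 against array 3 alone, none called. Atp5e, the epsilon subunit, was 5.86, 6.52 and 6.54 in KO tumor and 6.89, 6.02 and 7.56 in floxed tumor, with -0.52 over all tumor arrays and -1.25 against array 3 alone (adjusted p = 0.42 and 0.017).

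Atp5k, the e subunit that helps ATP synthases pair along the cristae, was 6.70, 6.85 and 6.87 in KO tumor and 7.33, 7.08 and 8.78 in floxed tumor. It was 6.74 and 6.21 in KO adjacent, 6.81 and 6.98 in floxed adjacent, and 8.23 and 6.33 on the conflicting arrays. No KO array reached a floxed array of its tissue, and floxed tumor array 3 and conflicting array 1 stood over 1 unit above the KO arrays. The difference was -0.92 ± 0.39 in tumor (adjusted p = 0.19) and -1.97 against array 3 alone (adjusted p = 0.0028). The 3 genes of the membrane c ring, Atp5g1, Atp5g2 and Atp5g3, encode the same mature protein, and differed by 0.22, 1.35 and -0.35 in tumor and 1.52, 1.09 and 1.18 in adjacent, none called. Over the complex, 11 of 17 genes lay above 0 in tumor and 15 of 17 in adjacent epithelium, against 2 of 17 when floxed tumor array 3 stood alone (median of -0.57, 3 called lower).

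Tumor against adjacent epithelium within KO was free of weak-signal arrays. Here 0 of 87 members were called in either direction (limma, the 5 KO arrays, 8 at an unadjusted p under 0.05), where 0.557% of all genes were called higher and 1.29% lower. Small positive differences were spread over all complexes: 70 of 87 lay above 0, with a median of 0.19, where 57.3% of all genes lay above 0 with a median of 0.04. The medians were 0.14 for complex I (24 of 34 above 0), 0.42 for the complex II subunits (4 of 4), 0.20 for complex III (8 of 9), 0.16 for complex IV (16 of 19) and 0.30 for complex V (16 of 17). Arrays did not overlap for 13 members that were higher in tumor (14.9%, against 17.9% of all genes) and 3 that were lower (3.45%, against 14.1%). Without KO adjacent array 2 the median was 0.08 and without KO tumor array 1 it was 0.36.

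Among single members, Uqcrc1 was 6.12, 6.46 and 6.88 in KO tumor and 5.97 and 5.60 in KO adjacent, a difference of 0.70 ± 0.23 (SE; adjusted p = 0.213). Sdhc differed by 0.56 ± 0.20 (adjusted p = 0.268) and Atp5b, with 7.13 against 7.15 as its closest arrays, by 0.57 ± 0.23 (adjusted p = 0.325). Ndufs5 was the exception among genes with an unadjusted p under 0.05, with lower values in tumor (adjusted p = 0.187), but all 5 of its KO values lie under the median of unnamed probe sets. Beside these values, enterocyte markers had a median of 1.88 and Wnt-target and stem cell markers of -1.01 in the same comparison, and their part in the small shift was not tested.

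**Figure D4:**
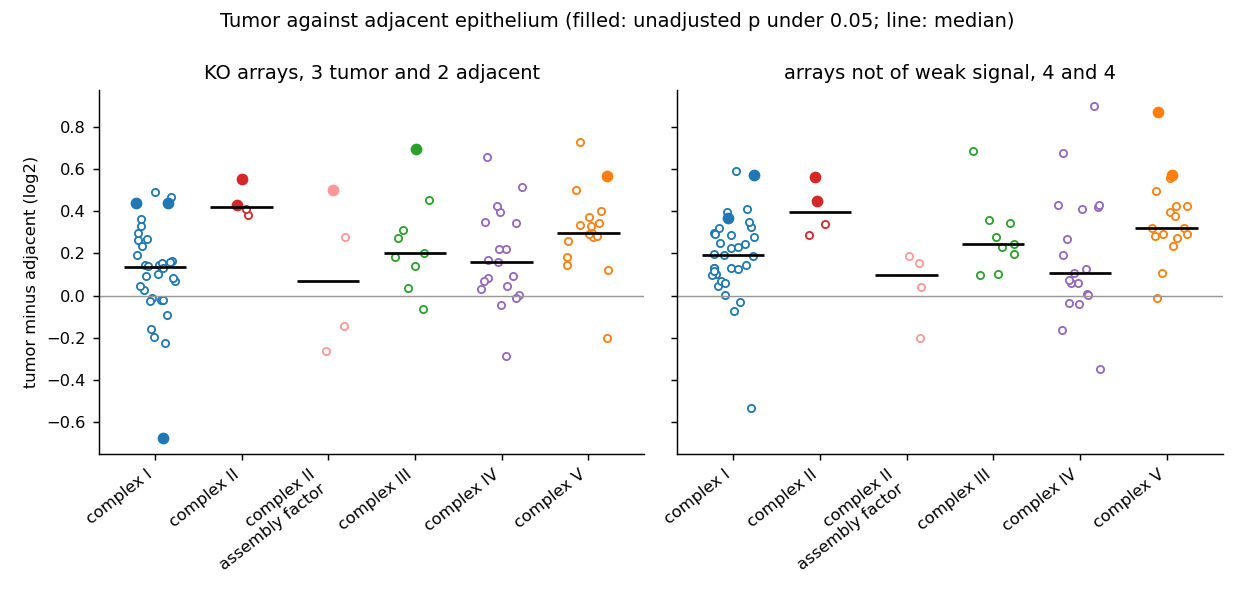
Log2 difference of tumor minus adjacent epithelium for each of the 87 genes by complex, for the 5 KO arrays (left) and for the 8 arrays not of weak signal (right), with a line at each median. Filled points have an unadjusted p under 0.05, and 0 genes passed after adjustment in either panel. Most points lie above 0, 70 of 87 on the left and 78 of 87 on the right.

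Within floxed, 0 of 87 members were called (limma, 15 at an unadjusted p under 0.05), and 0 of all genes were called in either direction (0.0%). The median member difference was 0.55, with 65 of 87 above 0, against -0.01 over all genes. It was 0.13 without floxed tumor array 3, and 0.19 with 50 of 87 above 0 after another quantile normalization. Arrays did not overlap for 21 members that were higher in tumor (against 8.64% of all genes) and 3 that were lower (against 10.1%). Complex V had the largest median, 1.19, and complex III stood at -0.01. Atp5o, which joins the stalk to the F1 head, was 8.05, 6.29 and 8.01 in floxed tumor and 5.16 and 5.63 in floxed adjacent. Those groups were apart, with a difference of 2.05 (unadjusted p = 0.0046), and 1.77 without floxed tumor array 3. All but 1 of these 5 arrays are of weak signal.

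Over all 12 arrays, 0 members and 0 genes were called (limma, 4 members at an unadjusted p under 0.05), and the member median was 0.18 with 64 of 87 above 0. With the weak-signal arrays left out, 4 tumor arrays stood against 4 adjacent arrays, the 2 conflicting arrays among them. Again 0 members were called (7 at an unadjusted p under 0.05), and 78 of 87 lay above 0 with a median of 0.25, where 51.9% of all genes lay above 0 with a median of 0.01. Arrays did not overlap for 3 members that were higher (Atp5pb, Ndufv3 and Sdhc, against 2.53% of all genes) and for 1 that was lower (Sdhaf1, against 1.83%). Atp5o was 7.17, 8.08, 8.38 and 8.01 in these tumor arrays and 7.42, 6.87, 6.94 and 6.91 in the adjacent ones, a difference of 0.87 ± 0.25 (SE; adjusted p = 0.46). Enterocyte markers were higher in tumor for 12 of 12 genes (median of 1.54) and Wnt-target and stem cell markers for 2 of 10 (-0.56) in this fit, which was not tested against the members.

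The test of whether the tumor difference depends on genotype called 0 of 87 members and 0 of all genes (limma, 4 members at an unadjusted p under 0.05). The 4 were Sdhaf1 (-1.20), Atp5pb (-1.20), Atp5mpl (-1.27) and Ndufa7 (-1.04), each with a smaller tumor minus adjacent difference in KO than in floxed. In all 4 genes the 2 floxed adjacent arrays held the lowest values of the 12 arrays.

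Genes around the complexes were described from lists of the same pathway. For mitochondrial DNA, 2 of 13 protein genes had a probe set. COX2, a core subunit of complex IV, was 11.71, 11.08 and 11.38 in KO tumor and 10.31 and 10.70 in KO adjacent, a difference of 0.88 (adjusted p = 0.085). On conflicting adjacent arrays 1 and 2 COX2 was 11.78 and 11.22, above and within the KO tumor range. ND3, a core subunit of complex I, was 8.72 and 8.75 in KO adjacent and 9.84 and 10.23 in floxed adjacent, and was called lower in KO (-1.30 ± 0.30, adjusted p = 0.035), opposite in sign to most nuclear members there. In tumor ND3 was 9.45, 9.10 and 9.25 in KO and 9.90, 10.06 and 10.48 in floxed, with no overlap and a difference of -0.88 (adjusted p = 0.090). On the 4 weak-signal arrays, where most nuclear members were low, ND3 lay above every KO value. It was 10.37 on conflicting array 1 and 9.0 on conflicting array 2.

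Of 42 assembly factors, 4 of them the Sdhaf members above, 24 lay above 0 in KO against floxed tumor (0 called) and 23 in adjacent epithelium (2 called higher, Sdhaf1 and the copper chaperone Cox17 at 1.78). Of 20 genes for electron carriers, ADP/ATP exchange and phosphate import, 17 and 16 lay above 0 in the same comparisons, and the outer membrane channel Vdac3 was called higher in adjacent epithelium (2.54 ± 0.33, adjusted p = 0.0084). Vdac3 was 7.13 and 6.78 in KO adjacent, 4.32 and 4.50 in floxed adjacent, and 5.95 and 6.19 on conflicting arrays 1 and 2. Of 15 citric acid cycle genes, 14 lay above 0 in both, none called. Of 71 mitochondrial ribosomal proteins, 54 lay above 0 in adjacent epithelium, with Mrpl10, Mrpl24, Mrpl51 and Mrps31 called higher, and 46 in tumor, 0 called. Over all genes, 49.6% lay above 0 in tumor and 47.6% in adjacent epithelium, and 0.682% and 2.91% were called higher. Both floxed adjacent arrays are of weak signal. Cox17 was 6.55 and 6.40 in KO adjacent, 4.78 and 4.61 in floxed adjacent, and 6.94 and 5.95 on conflicting arrays 1 and 2.

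In KO tumor against KO adjacent, the citric acid cycle leaned the same way as the members (14 of 15 above 0, 0 called), and mitochondrial ribosomal proteins did not (21 of 71 above 0, median of -0.11, with Mrpl33 called lower at -0.84, adjusted p = 0.040). Over all genes, 57.3% lay above 0 in this comparison, with 0.557% called higher and 1.29% lower. Of 14 regulators of mitochondrial biogenesis 5 lay above 0. Ppargc1a, the gene of PGC-1alpha, was the 1 called higher. It was 6.39, 6.15 and 6.41 in KO tumor and 5.31 and 4.72 in KO adjacent, a difference of 1.30 ± 0.19 (SE; adjusted p = 0.0237). In the 4-group fit over 10 arrays, 0 of all genes were called higher in this comparison, so that call was lost. The same held without KO adjacent array 2 and with conflicting labels read by genotype entry. On the floxed arrays Ppargc1a was 5.32, 4.67 and 7.64 in tumor and 5.37 and 3.77 in adjacent epithelium. The highest value of all 12 arrays was on floxed tumor array 3.

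The choice of probe set matters for some members. Of 18 members with several probe sets, 8 had probe sets that differed in sign in KO against floxed tumor, 2 in KO against floxed adjacent and 4 in tumor against adjacent within KO. Ndufc1, for instance, gave -0.14 with the brighter probe set and 1.54 with the other. When all probe sets were tested, 4 members were called higher in KO tumor, through 2 probe sets of Atp5h, 1 of Cox7b (2.21), 1 of Uqcr11 (1.61) and the 1 of Uqcrq. Many genes of this pathway have processed pseudogenes of near-identical sequence, and a probe set can read both, so values of short subunits such as those of Uqcrq, Atp5h and Cox7b carry that uncertainty.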

How the data were processed

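RNA from laser-cut epithelium was prepared with the GeneChip WT Pico kit and labelled with biotin for 12 arrays, per the labels' protocols. The deposited table holds 1 column of log2 expression values per array. Partek and RMA are named in the submitters' processing notes, with no versions. No filter or setting of these tools is stated there. The number of arrays limits the precision, and no detection p-value was used.

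The platform's annotation gave 21789 of 35556 probe sets a single symbol, 1621 several symbols and 12146 none. Only single symbols were used, 21698 of which matched the RefSeq table by Entrez identifier, with 0 changes. Each of 19938 genes was represented by its probe set of highest mean.

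Groups came from the labels. Genotypes were compared in a 4-group fit over 10 arrays with limma 3.58.1 in R 4.3.3 (lmFit and eBayes, two-sided, no covariate). Tissues were compared over the 5 arrays of a genotype or over all 12. The 4-group fit was an alternative for tissues within a genotype. P-values were adjusted over all genes by Benjamini-Hochberg, and a call is an adjusted p under 0.05. The steps were tested on simulated data. Weak-signal arrays had a median correlation under 0.7 with the others. Alternatives were another quantile normalization, no genes among the 30% dimmest, all probe sets, a trended robust spread, each array left out, only the arrays compared, the title number as a replicate block, both readings of the conflicting labels, and no weak-signal arrays.

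Same-numbered KO and floxed tumor arrays deviated together, with correlations of 0.105, 0.121 and 0.347, and so met the rule for pairs. The reported fits hold no block, and blocked values are given where they change a call. The labels name no shared source. KO tumor array 1 correlated more with floxed tumor array 2 (0.246) than with array 1. The adjacent and tissue comparisons met no such rule.

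The members, the gene lists and the tests were chosen with earlier results of these data known. Genes named are called members, the isoform families, the complex II subunits, the brightest member pairs and smallest p-values of each complex, up to 4 called genes per other list, and Ppard. Others, such as Ndufa8 and Atp5k, were chosen after their values were seen.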

Additional observations from a re-analysis of the deposited data

Results flagged for a closer look

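Over 72 sets of 6 arrays (36 named members in tumor and in adjacent epithelium), 9 had an array far from the other 5, where chance flags about 1 in 20. In tumor epithelium, floxed tumor array 2 lay far below the others for Cox4i1 (4.515), Cox6b1 (5.764), Ndufa11 (6.721), Ndufa12 (5.32) and Sdhaf1 (5.189). Cox8b was far highest on floxed tumor array 1 (4.632). In adjacent epithelium, Atp5g2 was far lowest on floxed adjacent array 1 (3.978) and Ndufa12 on floxed adjacent array 2 (6.218). All these arrays are of weak signal. Uqcr10, a small subunit of complex III, was far highest on conflicting array 1 (7.711), which is not.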

How the results depend on the processing

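In KO against floxed tumor, where 1 member was called higher and 0 lower, 0 were called higher after another quantile normalization, with only the arrays compared, with the title number as a replicate block and with conflicting labels read by title. With all probe sets 4 were called. Without weak-signal arrays 5 were called higher and 15 lower, or 4 and 15 with the conflicting arrays read by genotype entry added, and the median turned to -0.303 in both. In KO against floxed adjacent, where 7 were called higher and 1 lower, the counts were 3 and 0 after quantile normalization, 28 and 2 with only the arrays compared (8.92% and 8.31% of all genes), 37 and 5 with the replicate block (13.9% and 14.5%), and 0 and 0 with conflicting labels read by title or by genotype entry. A trended robust spread left 4 called higher, and dropping the 30% dimmest genes left 0 called lower. By genotype entry without weak-signal arrays the counts were 1 and 13, the median turned to -0.217 and Sdhaf1 to -0.043 (adjusted p = 0.89). By title without them the counts were 0 and 0, the median was 0.174, and Ndufb8 (-0.051), Sdhaf1 (-0.063) and Sdhc (-0.061) turned (adjusted p = 0.966 to 0.989). The adjacent median was 0.322 after quantile normalization, 0.67 by title and 0.414 by genotype entry. In tumor against adjacent within KO, 1 was called higher with the replicate block, which leaves out the unmatched KO tumor array 3, and also 1 when that array alone was left out. Leaving out 1 array at a time gave 0 to 37 members called higher and 0 to 4 lower in KO against floxed tumor (median of 0.163 to 0.853), 0 to 3 and 0 to 1 in adjacent epithelium (0.65 to 0.903), 0 to 1 and 0 in tumor against adjacent within KO (0.082 to 0.364), 0 and 0 within floxed (0.13 to 0.96) and 0 and 0 over all arrays (0.083 to 0.33). The highest tumor counts came without floxed tumor array 3, which leaves 2 weak-signal arrays on the floxed side. Of the named genes' values under these alternatives, 2179 stayed on their side of the threshold, 75 lost and 55 gained a call, 203 moved and 4 reversed. The replicate block, fitted for each comparison but that over all arrays, changed no other of these counts. The fits that join a label reading with leaving out weak-signal arrays, and the label readings within a genotype, were chosen after seeing the data. The cause was not tested for any of these changes.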
